A study of Mus musculus with 6 samples.

Results

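The last 3 days of a differentiation series were examined in a mouse embryonic stem cell line that carries full-length DNMT1: the day 7 array was set against the day 4 array of the same line, which are 2 of the 6 arrays of the study. The line lacks its own Dnmt1, Dnmt3a and Dnmt3b, the genes of the DNA methyltransferases, and expresses the complete DNMT1 protein throughout. All cells of the study carry this triple knockout. Day 7 cells had been grown for 3 days in 10% KSR, a serum replacement, with 10 ng/ml Activin A, which the submitters added to bring on primitive streak formation. Day 4 cells had been embryoid bodies for 1 day and had then grown attached for 3 days without leukaemia inhibitory factor (LIF). Day 0 cells of the line, stem cells in 10% FBS with LIF, and the arrays of a second line, whose DNMT1 lacks the N-terminal 602 amino acids (the deletion line), are used below for comparison. A single line carries each DNMT1 form, so an effect of the form and one of the line cannot be told apart. The labels do not say whether either line is 1 clone. Time, medium and Activin A go together between days 4 and 7 and cannot be told apart.

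Activin A binds the receptors that Nodal also uses and acts through the transcription factors SMAD2 and SMAD3 with FOXH1. In the mouse embryo this pathway patterns the epiblast and is needed for the primitive streak, from which mesoderm and endoderm arise, and its targets include the feedback inhibitors Lefty1 and Lefty2. Embryonic stem cells normally give rise to few trophoblast cells, the lineage of the placenta. Genes of trophoblast and of germ cells include many whose promoters are methylated in embryonic cells.

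RNA was hybridised to Affymetrix arrays, and levels are log2 MAS5 signals. Signals under a floor of 5.37 were set to it, and a gene took its brightest probe set. Of 18193 genes with a single symbol, 13277 had signals that averaged the floor or more over the 6 arrays. The 2 arrays had medians of 6.09 at day 7 and 6.19 at day 4 over all probe sets, and 12812 and 12788 measured genes lay above the floor on them. With 1 array a side there is no replicate error and no test: all values are differences between these 2 arrays. A gene is called higher or lower where the difference reached 2-fold and the brighter array was at least 2 times the floor. A difference from a level at the floor is a lower bound, given as at least that size. In bulk RNA, fewer cells of a type and less RNA per cell cannot be told apart.

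At day 7 the placental genes Plac1 and Cdkn1c and the germline gene Stra8 were higher than at day 4, and Fgf5 of the primed epiblast and Fgf8, Eomes and Sp5 of the streak were lower. The day 7 level of Stra8, 9.42, was near its day 0 level of 9.13. Most genes differed little: 10102 of the 13277 (76.1%) lay within 1.5-fold, and the median difference was 0.02. At day 7, 690 genes were called higher, 5.2% of those measured, and 417 lower, 3.14%. With the arrays scaled to equal medians instead, the median of all genes moved to 0.12, and the calls to 841 higher and 314 lower, so that 72.8% of calls were higher against 62.3%. At least 4-fold differences numbered 82 higher and 33 lower, and at least 8-fold differences 10 and 2. The called genes began at differences of 1 on the log2 scale, where Agfg2 and Ak4 lay just inside and Aldh3b2, at 0.99, just outside. On the lower side Abcb10, at -1.0, was just inside and Epor, at -0.99, just outside.

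A second probe set of the same gene reads the same RNA at another place and took no part in choosing the genes. Of the 690 genes called higher, 240 had one that was also measured. It lay on the same side in 199 of them, and at least 2-fold higher in 98. Of the 417 called lower, 160 had one, which lay on the same side in 138 and at least 2-fold lower in 68. It was at least 2-fold the other way for 1 higher and 3 lower genes. Over 6152 measured genes the SD of the gap between both probe sets was 0.48 on the log2 scale, and their differences had a Pearson correlation of 0.6. Among the called genes the SD of the gap was larger, 0.69 for the 240 higher and 0.71 for the 160 lower genes.

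**Figure D1:**
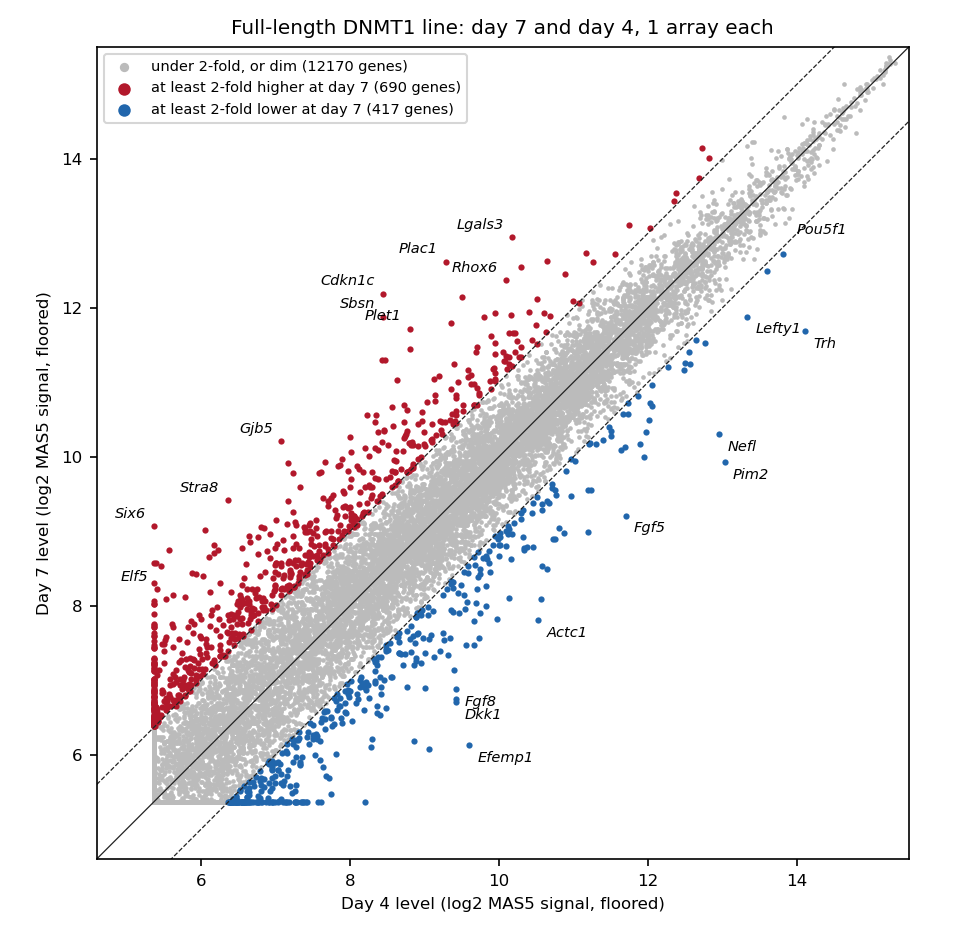
Level of each measured gene at day 4 (x axis) and day 7 (y axis) in the full-length line, in log2 MAS5 signals with the floor at 5.37. Dashed lines mark 2-fold, and the 690 genes called higher and 417 called lower lie outside them. Plac1 and Cdkn1c stand far above the diagonal, and Efemp1 and Pim2 far below it.

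The 15 genes with the largest positive differences included several of placenta and of epithelia. Cdkn1c, an imprinted gene for the cell cycle inhibitor p57, had levels of 8.89, 8.45 and 12.19 at days 0, 4 and 7, a 13.4-fold higher signal at day 7 than at day 4 (log2 3.74). Plac1, an X-linked gene named for its placental expression, lay at the floor at day 0 and at 9.29 and 12.62 at days 4 and 7 (log2 3.33). Both levels of Plac1 after day 0 were well clear of the floor, and the day 7 level was the highest of all 6 arrays. Sbsn, which encodes the epidermal secreted protein suprabasin, had 11.88 at day 7 and 8.45 at day 4 (log2 3.43), and its other probe sets gave 3.39 and at least 2.28.

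Six6, a homeobox gene of the eye and pituitary, had 9.07 at day 7 and lay at the floor at day 4, a difference of at least 3.70. Dkkl1, a secreted relative of the Dickkopf proteins, had 8.58 and lay at the floor at day 4 (at least 3.21). Gjb5, a connexin gene of placenta and skin, had 10.21 at day 7 and 7.08 at day 4 (log2 3.13), and Plet1, a surface protein gene of trophoblast progenitors, 11.72 and 8.80 (log2 2.92). The other Plet1 probe sets gave 3.05 and 0.63. Sct, the gene of the hormone secretin, had 11.30 at day 7 and 8.47 at day 4, and Tgm2, the gene of transglutaminase 2, 11.30 and 8.43. For Tgm2 the brightest probe set is of a kind that can also bind related transcripts, and its 4 others gave between 1.56 and 3.33.

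Among the others, Mt4, a metallothionein gene of stratified epithelia, differed by 3.18 (8.75 at day 7, 5.57 at day 4), and Stra8, a gene of meiotic entry that retinoic acid induces, by 3.06 (9.42 and 6.36). Stra8 had 9.13 at day 0, so its day 7 level was near that of day 0. Crxos, a homeobox gene of early embryos, had 8.58, 5.40 and 8.57 at days 0, 4 and 7, so its day 7 level was that of day 0. Vsir, the gene of the immune checkpoint protein VISTA, differed by 3.06, and Olr1, which encodes a receptor for oxidised LDL, by 2.97. Serpinb9g, a serpin gene, lay at the floor at days 0 and 4 and at 8.30 at day 7, and its close paralogs could share its signal. Of these 15 genes 9 were also called higher in the deletion line, and Plac1 was called lower there.

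**Figure D2:**
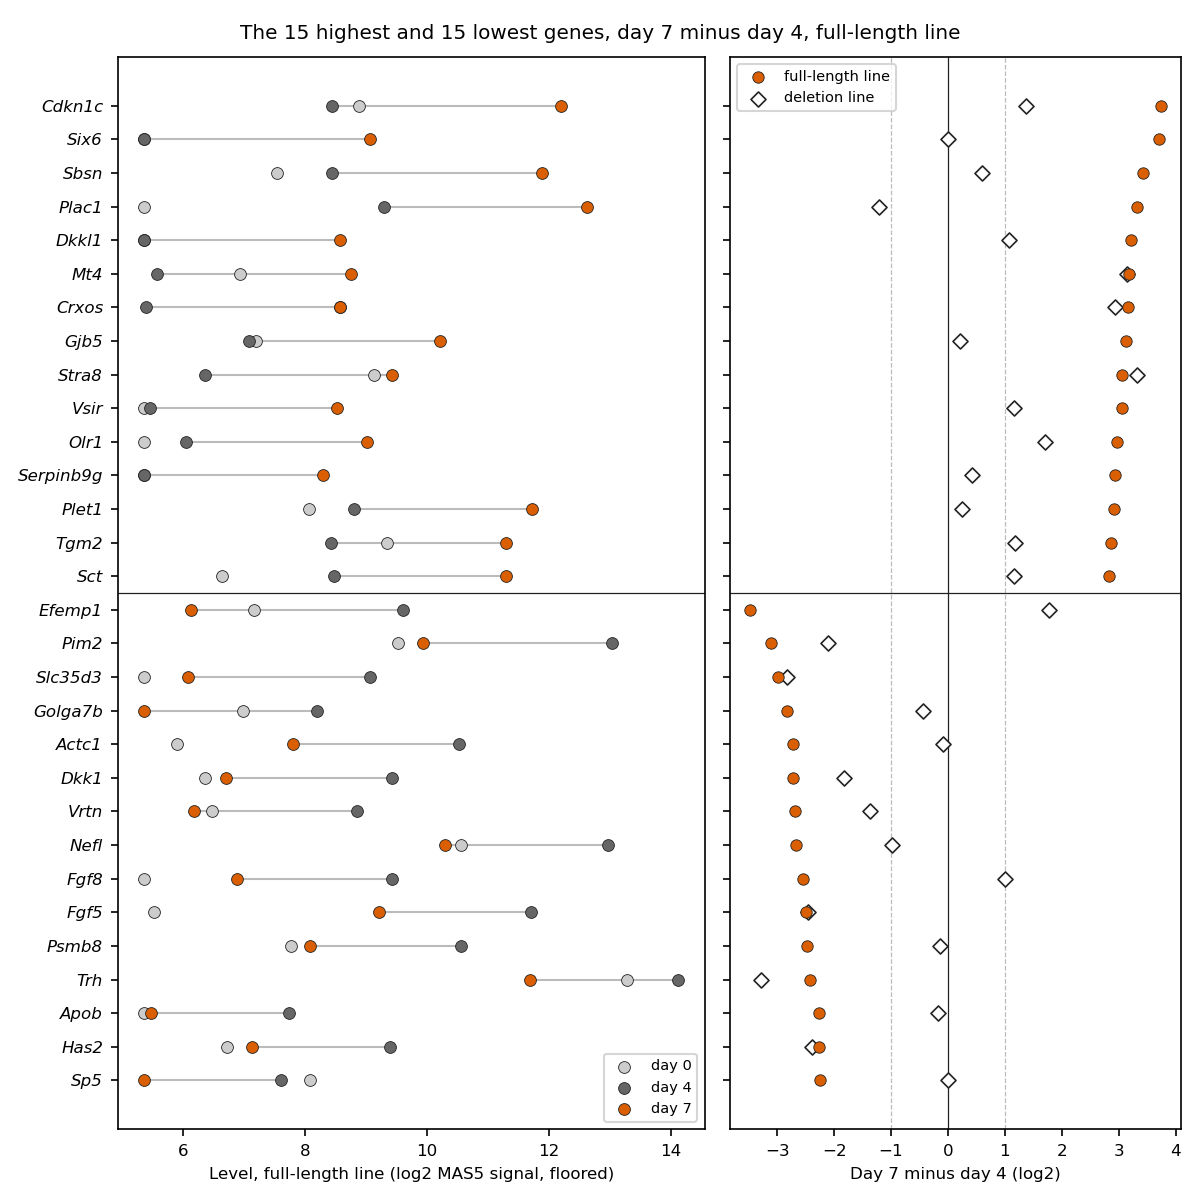
The 15 highest and 15 lowest genes by day 7 minus day 4 in the full-length line. Left, levels at days 0, 4 and 7 (log2 MAS5 signal, floored at 5.37); right, the day 7 minus day 4 difference in the full-length line (circles) and the deletion line (diamonds), 1 array per point. Plac1, Efemp1 and Fgf8 lie on opposite sides of 0 in the lines, while Stra8, Mt4, Crxos, Slc35d3, Fgf5 and Has2 lie close together.

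Many trophoblast genes were higher at day 7. Of the list's 21 measured genes 11 were called higher, beside 5.2% of all genes, and 1, Eomes, lower, beside 3.14%. The list's median difference was 1.00 beside 0.02 over all genes. Elf5, a transcription factor that holds trophoblast stem cells in their lineage, had 8.22 at day 7 and 5.41 at day 4, and lay at the floor at day 0. In the deletion line it was at the floor at all 3 days, so 1 of 6 arrays held a clear Elf5 signal. Its promoter is methylated in embryonic stem cells and unmethylated in trophoblast, as is known from work on mouse embryos. The 250 bases before its 2 annotated starts are shown because this promoter is a textbook case of silencing by DNA methylation, with each CpG in capitals. They lie at chr2:103411848-103412097 and chr2:103423818-103424067 (GRCm38.p6, plus strand) and hold 2 and 8 CpGs.
Elf5, start 1: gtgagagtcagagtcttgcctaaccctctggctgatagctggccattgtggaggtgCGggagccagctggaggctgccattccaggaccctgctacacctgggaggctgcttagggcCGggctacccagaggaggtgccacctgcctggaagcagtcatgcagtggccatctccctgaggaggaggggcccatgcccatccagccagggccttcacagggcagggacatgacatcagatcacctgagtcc
Elf5, start 2: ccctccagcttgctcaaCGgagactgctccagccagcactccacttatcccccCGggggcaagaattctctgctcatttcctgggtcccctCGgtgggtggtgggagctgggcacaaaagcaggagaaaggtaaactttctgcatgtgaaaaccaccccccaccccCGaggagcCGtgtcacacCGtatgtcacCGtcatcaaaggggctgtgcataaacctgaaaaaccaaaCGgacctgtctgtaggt
The Plac1 promoters are shown for comparison, since Plac1 had the largest difference in the list. Those windows lie at chrX:53240111-53240360 and chrX:53114406-53114655 (GRCm38.p6, minus strand, written 5′ to 3′ on that strand) and hold 2 and 4 CpGs.
Plac1, start 1: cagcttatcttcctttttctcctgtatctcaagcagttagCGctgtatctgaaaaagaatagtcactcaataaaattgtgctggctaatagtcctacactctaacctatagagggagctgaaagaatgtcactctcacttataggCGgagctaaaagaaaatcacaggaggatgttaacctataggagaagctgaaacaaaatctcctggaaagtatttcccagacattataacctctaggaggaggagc
Plac1, start 2: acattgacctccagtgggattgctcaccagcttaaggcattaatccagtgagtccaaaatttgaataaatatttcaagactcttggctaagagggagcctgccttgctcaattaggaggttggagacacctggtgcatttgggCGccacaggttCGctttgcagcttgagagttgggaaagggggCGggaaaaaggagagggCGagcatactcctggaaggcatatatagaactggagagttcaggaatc
Over the 10709 measured genes with a RefSeq promoter, the start with the most CpGs held a median of 16 in 250 bases, so the Elf5 and Plac1 windows hold fewer. They do not stand for the list. Its 15 measured genes with a promoter also had a median of 16, and 73.3% had 10 or more CpGs, beside 75.3% of all. Of the motifs described below, the window of Plac1 start 2 held the E2F letters. No methylation was measured here, so whether these promoters are methylated in this triple knockout line is not known.

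The homeobox genes Rhox6 and Rhox9, which lie side by side on the X chromosome, had 12.37 and 11.79 at day 7 and 10.10 and 9.36 at day 4. Tfap2c, an AP-2 factor that trophoblast shares with germ cells, differed by 1.73, and Esx1, an X-linked homeobox gene of the placenta, by 1.58. Both were lower at day 4 than at day 0, with 11.12, 9.89 and 11.62 for Tfap2c at days 0, 4 and 7. Esx1 had 7.59, 6.24 and 7.82. Ascl2, a trophoblast factor gene that is imprinted, differed by 1.5, and its 2 other probe sets by 1.62 and 1.43. Gata3 reached 1.00. These genes lay higher at day 7 than at day 4 by at least 2-fold. The simple-epithelium keratin genes Krt19 and Krt7 differed by 2.25 and 2.07, while Krt8 and Krt18, already at 13.33 and 13.43 at day 4, differed by 0.84 and 0.79. Cdx2, the factor that begins the lineage in the embryo, had 5.93 at day 7 and 5.59 at day 4, just over the floor, and Hand1, a factor of giant cells, 7.58 and 7.06. Tpbpa, a gene of the spongiotrophoblast, was below the floor. Against day 0, which shares the day 7 array, the list's median was 2.64.

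**Figure D3:**
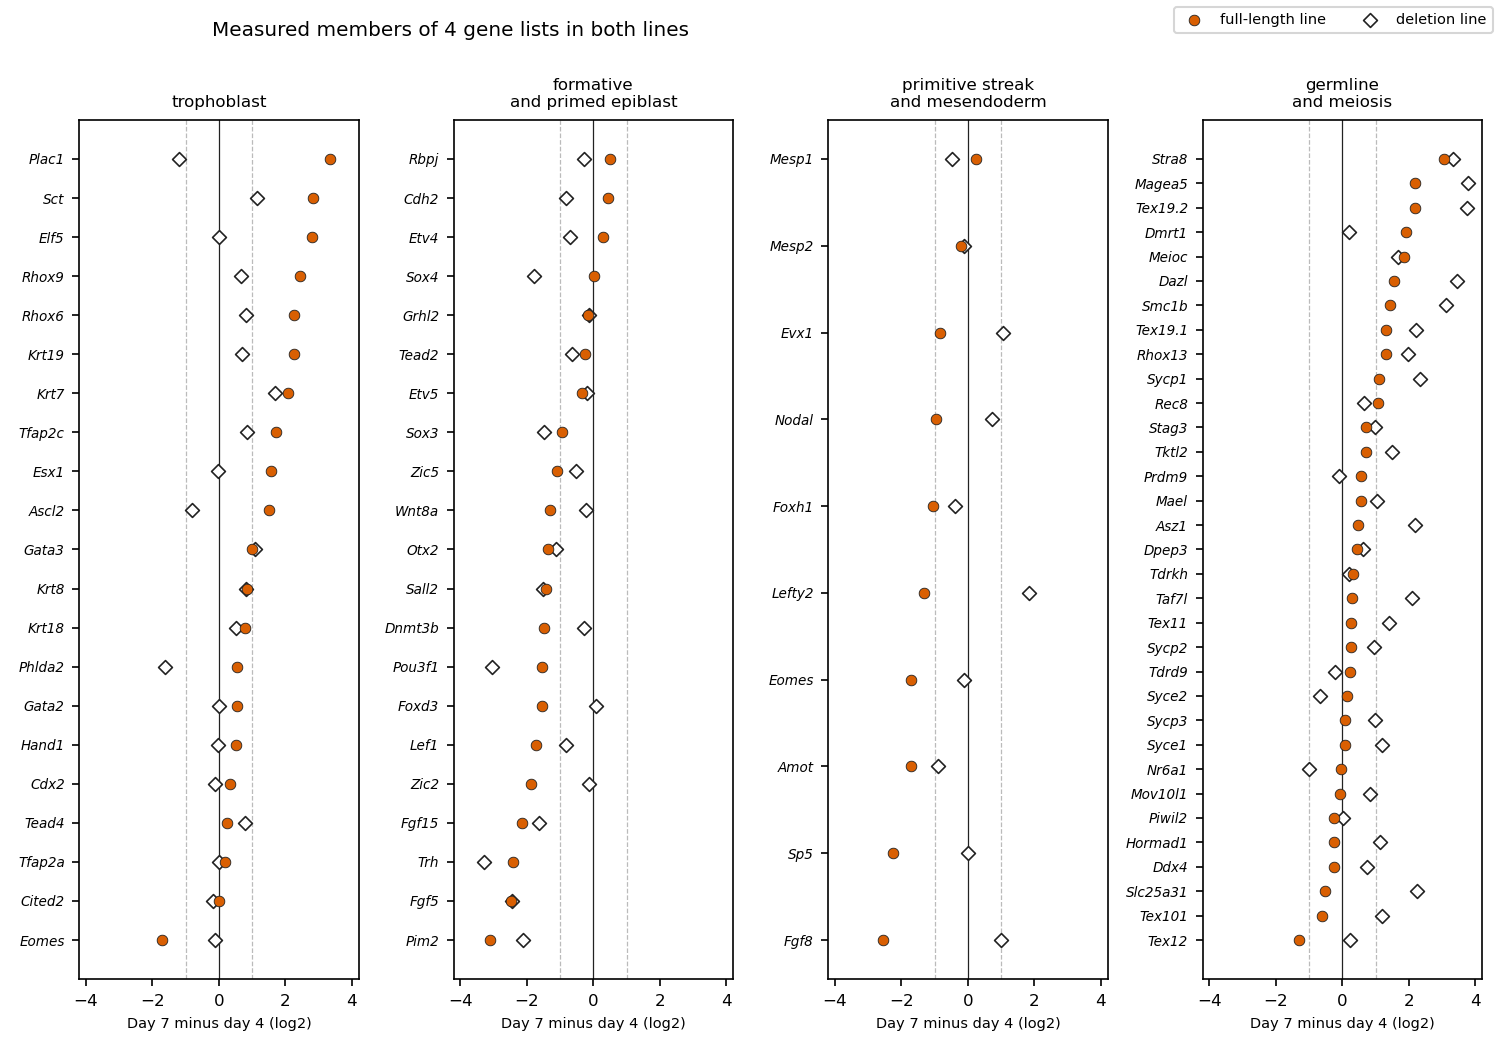
Day 7 minus day 4 (log2) for each measured member of 4 gene lists, in the full-length line (circles) and the deletion line (diamonds), 1 array per point; dashed lines mark 2-fold. In the full-length line 11 trophoblast members lie at or right of the upper dashed line, and 13 primed epiblast and 6 streak members lie at or left of the lower one.

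The 15 genes with the largest negative differences included Pim2, Fgf5 and Trh, all on the primed epiblast list, and the growth factor gene Fgf8. Efemp1, which encodes the matrix protein fibulin-3, had 7.16, 9.60 and 6.13 at days 0, 4 and 7 (log2 -3.47 for day 7 over day 4). Pim2, a kinase gene, had 9.93 at day 7 and 13.03 at day 4 (log2 -3.10), and Slc35d3 6.08 and 9.06 (log2 -2.98). Dkk1, a secreted Wnt inhibitor, had 6.71 and 9.43 (log2 -2.72), and Actc1, the cardiac actin gene, 7.81 and 10.53 (log2 -2.72). Nefl, a neurofilament gene, had 10.30 and 12.96 (log2 -2.66), with its other probe set at -1.96. Each of these 6 genes had a day 4 level above its day 0 level.

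Golga7b, Vrtn, Psmb8 and Has2 followed, with differences of -2.83, -2.68, -2.47 and -2.26, that of Golga7b being a bound because its day 7 level lay at the floor. Psmb8 encodes a subunit of the immunoproteasome and Has2 a hyaluronan synthase. Trh, the gene of thyrotropin-releasing hormone, had 13.28, 14.11 and 11.69 at days 0, 4 and 7 (log2 -2.42 for day 7 over day 4). It was thus already high in the stem cells of day 0, and it is on the definitive endoderm list too. Apob, an apolipoprotein gene of visceral endoderm, had 5.48 and 7.74 (log2 -2.26). Of the 15 genes 7 were also called lower in the deletion line, and Efemp1 and Fgf8 were called higher there. For Fgf8 that call was just at the limit, with the floor at day 4 and 6.37 at day 7.

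Many genes of the formative and primed epiblast, the state between naive stem cells and gastrulation, were lower. Of 21 measured, 13 were called lower, beside 3.14% of all genes, and 0 higher, and the median difference was -1.38. Fgf5, the growth factor that marks this state, had 5.52, 11.70 and 9.21 at days 0, 4 and 7, a difference of -2.49 for day 7 over day 4, and its other probe set gave -2.16. It remained far above its day 0 level. Fgf15, a growth factor gene, differed by -2.15, Zic2 by -1.89, Lef1 by -1.72 and Pou3f1, which encodes OCT6, by -1.56. Otx2, a transcription factor of the primed epiblast, differed by -1.38. The 4 members with differences above 0 were Rbpj, Cdh2, Etv4 and Sox4, none of them called. Dnmt3b, whose gene is altered in these cells, differed by -1.48, and its other probe set by -0.77. Whether they read the deleted part of the gene was not examined. Against day 0 the list's median was -0.17.

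The Fgf5 promoter is printed as the contrast to the windows above, with each CpG in capitals. It lies at chr5:98253934-98254183 (GRCm38.p6, plus strand) and holds 24 CpGs in 250 bases.
Fgf5, start 1: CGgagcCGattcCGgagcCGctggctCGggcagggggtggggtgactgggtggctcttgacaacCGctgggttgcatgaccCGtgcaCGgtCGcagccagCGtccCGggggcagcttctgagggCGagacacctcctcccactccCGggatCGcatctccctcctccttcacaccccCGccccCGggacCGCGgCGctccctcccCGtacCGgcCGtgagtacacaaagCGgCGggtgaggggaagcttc
Of the 13 measured primed epiblast genes with a promoter, 84.6% had 10 or more CpGs, beside 75.3% of all measured genes, 56.2% of those called higher and 65.8% of those called lower.

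Regulators of the primitive streak, the structure the Activin step was meant to bring on, were lower at day 7 in part, and several were not measured. Of 20 entries 10 were measured, of which 6 were called lower, beside 3.14% of all genes, and 0 higher. The median was -1.18, and -0.47 with no filter on dim genes. Fgf8, a ligand that cells need to leave the streak, lay at the floor at day 0 and at 9.43 and 6.88 at days 4 and 7 (log2 -2.55). Eomes, a T-box factor of the streak that trophoblast also uses, had 7.23 at day 7 and 8.95 at day 4 (log2 -1.72), and its other probe set gave -1.65. Sp5, a target of Wnt signalling, lay at the floor at day 7 and had 7.61 at day 4 (log2 -2.24 or more in size). Mixl1, a homeobox gene of the streak, was below the floor at all 3 days, with unfloored values of 4.90, 2.76 and 3.06. Gsc, Wnt3, Wnt3a, Tbx6 and Lhx1 had mean signals below the floor over the 6 arrays. On the 2 arrays compared, Gsc lay just over the floor, with 5.90 at day 7 and 5.61 at day 4. Lhx1 had unfloored values of 1.16 and 5.84. Mesp1, a factor of early mesoderm, had 6.32 at day 7 and 6.09 at day 4. The gene of brachyury, T, had no probe set with a single symbol. Evx1, Mesp2 and Nodal were not called either, and no array lies between days 4 and 7.

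Genes of the Activin and Nodal pathway itself were mixed, with 4 of 26 called lower and 1 higher (median -0.23). Of all genes 3.14% were called lower and 5.2% higher. Lefty1, a feedback inhibitor that the pathway induces, had 13.84, 13.33 and 11.88 at days 0, 4 and 7, and Lefty2 12.45, 12.03 and 10.72. Their differences for day 7 over day 4 were -1.45 and -1.31. The ligand gene Nodal differed by -0.95 (10.51 at day 7, 11.46 at day 4), with its other probe set at -1.0, and Foxh1, the partner of the SMADs, by -1.05. Foxh1, Lefty1 and Lefty2 were called lower and Nodal was not, and 21 of the 26 genes were uncalled. Foxh1, Lefty2 and Nodal are on the streak list as well. The co-receptor gene Tdgf1 differed by -0.77, Smad7, an inhibitory SMAD, by -0.75, and Fst, which encodes the activin-binding protein follistatin, by -1.28. Fstl3, another activin-binding protein gene, was the 1 member called higher (log2 1.81). In the deletion line Lefty1 and Lefty2 had differences of 2.13 and 1.85, and Nodal of 0.72.

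Most BMP genes were not called. Of the 21 measured BMP and Id genes 18 were uncalled and 2 were called lower, where 3.14% of all genes were, Id3 (log2 -1.68) and Msx1 (log2 -1.3, with another probe set at -0.07), and Gata3 was called higher. Id1, an inhibitor of differentiation factors, had 10.66 at day 7 and 11.59 at day 4 and was not called. Of 24 FGF genes 4 ligands were called lower, Fgf8, Fgf5, Fgf15 and Fgf17, and Fgfbp1, an FGF-binding protein gene, was called higher (log2 1.58). Of 33 Wnt genes 6 were called lower, among them Dkk1, Sp5, Lef1, the receptor gene Fzd10 (log2 -1.59), Wnt8a (log2 -1.3) and Wnt6 (log2 -1.03). Frzb and Dkk3, both genes of secreted Wnt inhibitors, were called higher (log2 1.46 and 1.04). The medians of these 3 lists were -0.11, -0.34 and -0.47.

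**Figure D4:**
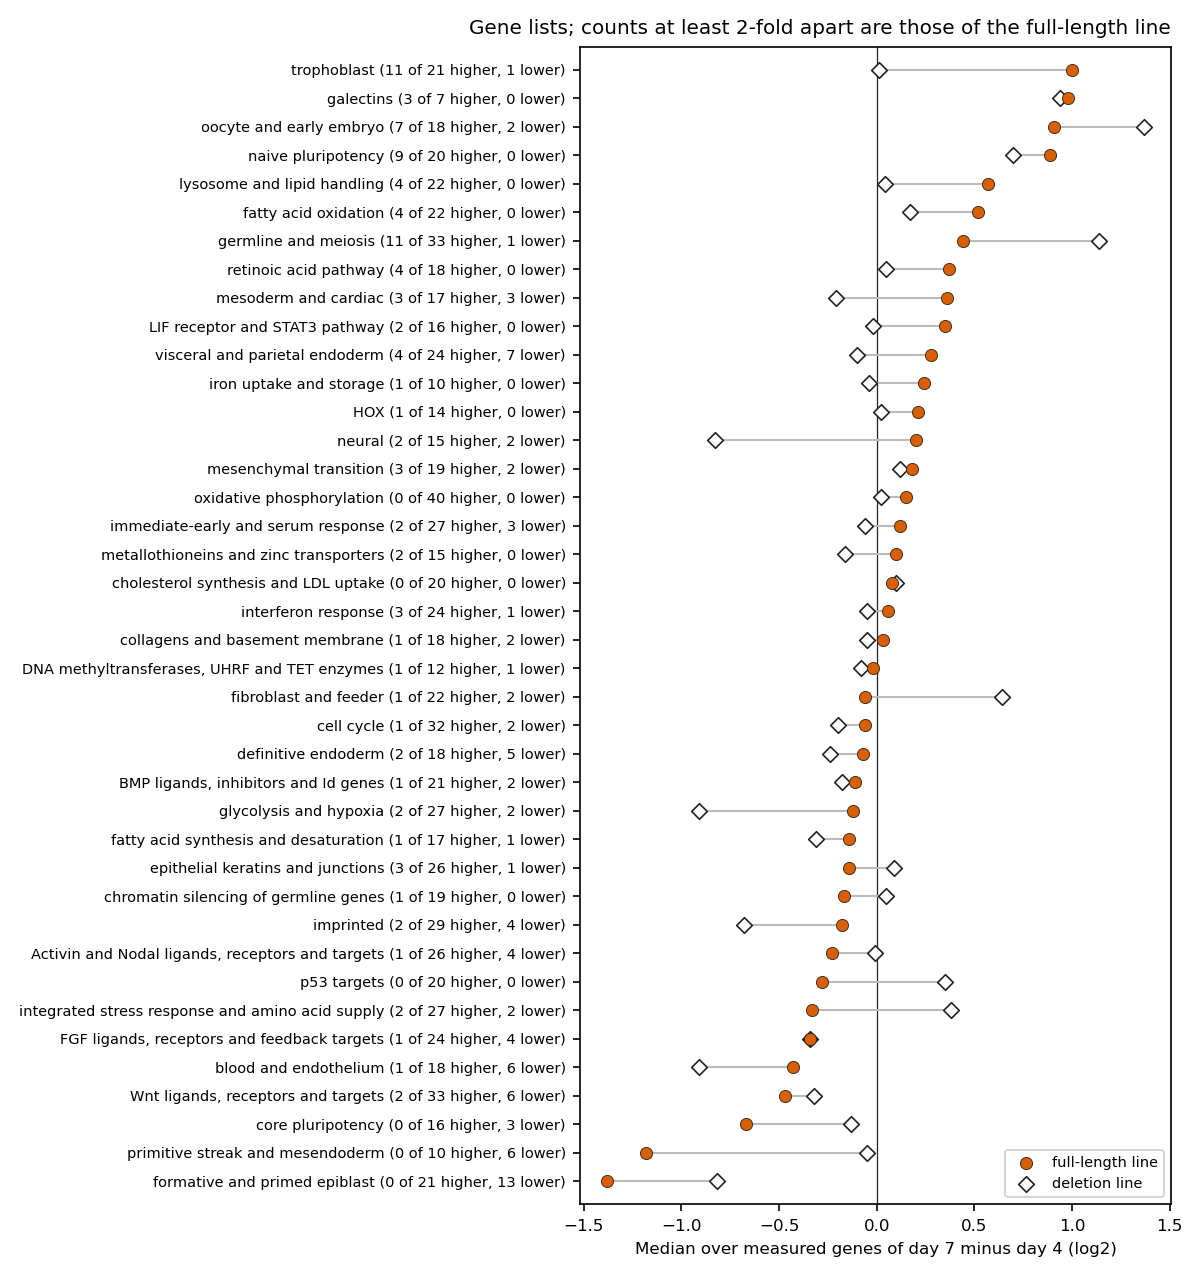
Median over measured genes of the day 7 minus day 4 difference (log2) for 40 gene lists, in the full-length line (circles) and the deletion line (diamonds); labels give how many genes of the full-length line were called. Trophoblast, at 1.00, is highest and the formative and primed epiblast, at -1.38, lowest in the full-length line.

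Of 20 naive pluripotency genes, those of stem cells in LIF, 9 were called higher at day 7 than at day 4, beside 5.2% of all genes, 0 were called lower and 11 were uncalled (median 0.89). Among the uncalled, Klf5, Tet2 and Mras lay below 0, at -0.31, -0.35 and -0.01. Tcl1 differed by 2.14. Dppa3 had 12.07, 10.51 and 12.12 at days 0, 4 and 7, and Gbx2 differed by 1.73. Klf4, a factor of the naive state, differed by 1.37, but its other probe set gave -0.24. Socs3, a feedback gene of LIF signalling, differed by 1.59, with its other probe sets at 1.47 and 1.43, and Esrrb, Zfp42 and Prdm14 by 1.13, 1.06 and 1.01. Against day 0, which shares the day 7 array, the list's median was -1.15, although Dppa3 was back at its day 0 level. The core factors differed less: Sox2 by 0.09, Nanog by 0.10 and Pou5f1, the gene of OCT4, by -0.68 (13.21 at day 7, 13.89 at day 4). Of the 16 core pluripotency genes 3 were called lower, beside 3.14% of all genes, and 0 higher. These 3 were Lin28a, Zscan10 and L1td1 (log2 -1.33, -1.13 and -1.09). Of 16 genes of the LIF receptor and STAT3 pathway only Socs3 and Klf4 were called.

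Germ cell genes, many of which DNA methylation silences in other cells, were higher in part. Of 33 measured, 11 were called higher, beside 5.2% of all genes, and 1, Tex12, lower, beside 3.14% (median 0.44). Dazl, which encodes an RNA-binding protein of germ cells, had 11.40, 9.45 and 11.00 at days 0, 4 and 7, a difference of 1.55 for day 7 over day 4, and its other probe set gave 1.52. Magea5, an X-linked germline gene, differed by 2.19, Tex19.2 by 2.18, Dmrt1, a factor of the testis, by 1.91, and Meioc, a gene of meiotic prophase, by 1.86. Smc1b and Rec8 of the meiotic cohesin differed by 1.42 and 1.06, and Sycp1 of the synaptonemal complex by 1.10. Ddx4, Piwil2 and Mov10l1 of the piRNA pathway were not called. The germ cell markers were thus uneven, and Dazl at day 7 lay below its day 0 level. Magea5 and Meioc had 8.75 and 9.14 at day 0, near their 8.85 and 9.12 at day 7. Tex19.2 and Dmrt1 had 8.01 and 10.38 at day 0, below their 9.79 and 11.04 at day 7. Against day 0, which shares the day 7 array, the list's median was 0.16. In the deletion line 18 of the 33 genes were called higher, beside 4.78% of all genes there (median 1.14), with Dazl at 3.46.

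The Dazl promoter is shown because it is rich in CpGs while the gene was higher at day 7, with each CpG in capitals. It lies at chr17:50293621-50293870 (GRCm38.p6, minus strand, written 5′ to 3′ on that strand) and holds 20 CpGs.
Dazl, start 1: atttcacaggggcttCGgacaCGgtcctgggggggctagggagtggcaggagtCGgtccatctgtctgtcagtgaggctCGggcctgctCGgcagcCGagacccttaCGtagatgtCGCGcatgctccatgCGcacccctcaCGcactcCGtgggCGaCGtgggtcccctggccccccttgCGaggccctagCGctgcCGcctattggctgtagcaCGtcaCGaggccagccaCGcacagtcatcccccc
Of the 30 measured germline genes with a promoter, 76.7% had 10 or more CpGs, beside 75.3% of all measured genes. The E-box letters CACGTG, searched on both strands in the 250 bases before each start, were in 12 of these 30 (40%) and in 9.83% of the 10709 genes with a promoter. The E2F letters GCGGGAA were in 8 (26.7%) beside 7.87%. Neither was in the Dazl window. AP-2 letters, GCCNNNGGC, were in 7 of 15 trophoblast genes with a promoter (46.7%) and in 23.8% of all. FOXH1 letters, AATCCACA, were in 4 of 552 genes called higher, 0 of 316 called lower and 0.598% of all. Matches of different motifs were counted separately, also where they overlap, and a match is a description of sequence only.

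Genes of oocytes and the early embryo were higher in part, with 7 of 18 called higher and 2 lower, beside 5.2% and 3.14% of all genes. The median was 0.91, and 0.23 with no filter on dim genes. Nlrp4f, Khdc3 and Ooep, genes of the oocyte's maternal complex and its relatives, differed by 2.56, 2.27 and 1.59, and Zp3, an egg coat gene, by 1.13. Khdc3 had 11.04, 7.66 and 9.93 at days 0, 4 and 7. The 2 called lower, Usp17la and Ubtfl1 (log2 -1.83, and -1.23 or more in size), were called higher in the deletion line, with 2.31 and 2.34. Retinoic acid pathway genes had 4 of 18 called higher and 0 lower, namely Stra8, Crabp1 (log2 1.19), Rbp4 (log2 1.13) and Meis2 (log2 1.00).

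Endoderm genes differed in both directions, where 5.2% of all genes were called higher and 3.14% lower. Among 18 definitive endoderm genes 2 were called higher, Krt19 and Tmprss2 (log2 1.25), and 5 lower, Dkk1, Trh, Foxa1 (log2 -1.58), Otx2 and Cldn6 (log2 -1.07). Most of these are on other lists too: Krt19 on the trophoblast, Trh and Otx2 on the primed epiblast, Dkk1 on the Wnt and Cldn6 on the epithelial list. Sox17 and Foxa2, factors that define endoderm, had 8.38 and 6.36 at day 7 and 7.96 and 6.01 at day 4. Cer1 and Gsc had mean signals below the floor over the 6 arrays. Unfloored, Cer1 had 5.27 at day 7 and 6.05 at day 4. Among 24 genes of visceral and parietal endoderm, the yolk sac lineages, 7 were called lower and 4 higher. Apob, the uptake receptor gene Lrp2 (log2 -1.49), Ttr (log2 -1.34), Dab2 (log2 -1.20) and Cubn (log2 -1.17) were lower, while Plat, the plasminogen activator gene (log2 2.03, but -0.64 at its other probe set), Apoa2 and Pdgfra (log2 1.48 each) and Rbp4 were higher.

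Mesodermal and neural genes split as well, where 5.2% of all genes were called higher and 3.14% lower. Of 17 mesoderm and cardiac genes, with a median of 0.36 that became -0.16 with the floor at the 50th percentile, 3 were called each way, Mylpf, a myosin light chain gene (log2 2.33), Myl4 (log2 1.69) and Pdgfra higher, and Actc1, Tbx20 (log2 -1.17) and Twist1 (log2 -1.11) lower. Blood and endothelial genes had 6 of 18 called lower, with the embryonic globin gene Hba-x at -1.67 and the receptor gene Flt1 at -1.62, whose 3 other probe sets lay between -1.94 and -1.58. Cdh5, the cadherin gene of endothelium, was called higher (log2 1.82). Of 15 neural genes Nefl and Nefm (log2 -1.55) were lower and Ncam1 (log2 1.40) and Sox21 (log2 1.06) higher. The early neural factor Sox1 differed by 0.20.

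Krt14, a keratin gene of basal epidermis, had 8.71 at day 7 and 6.18 at day 4 (log2 2.53), and its other probe set gave 1.79. Of 26 epithelial genes 3 keratin genes, Krt14, Krt19 and Krt7, were called higher and Cldn6 lower, and the median was -0.14. Of 7 measured galectin genes, which encode sugar-binding proteins, 3 were called higher, Lgals3 (12.95 at day 7, 10.18 at day 4, log2 2.77), Lgals9 (9.91 and 7.17, log2 2.74) and Lgals8 (log2 1.16). Lgals1 differed by 0.98. Mmp9, a matrix protease gene of trophoblast and other invasive cells, had 7.89 at day 7 and lay at the floor at day 4 (at least 2.52). In the mesenchymal list, with 3 of 19 called higher and 2 lower, Zeb1 differed by 1.85 at its brightest probe set and by -0.58 at another. Fibroblast genes, markers of feeder cells, had 1 of 22 called higher, Col1a2 (log2 1.77), and 2 lower, Col3a1 and Col6a3. Basement membrane genes had 1 of 18 higher, Nid1 (log2 1.55), and 2 lower, Col27a1 and Col9a3, and HOX genes 1 of 14, Hoxb2 (at least 1.3). Over all measured genes 5.2% were called higher and 3.14% lower.

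Fatty acid oxidation genes had 4 of 22 called higher and 0 lower, beside 5.2% and 3.14% of all genes (median 0.52). These were the carnitine carrier gene Slc25a20 (log2 1.98, other probe set 1.86), the kinase gene Pdk4 (log2 1.79), the lipid droplet gene Plin2 (log2 1.56) and the dehydrogenase gene Acadvl (log2 1.21). Lysosome and lipid handling genes also had 4 of 22 called higher, Plin2, Lpl (log2 1.47), Fabp3 (log2 1.42, but -0.01 at a dimmer probe set) and Ctsb (log2 1.16), with a median of 0.57. For cholesterol synthesis 0 of 20 were called, with Hmgcs1 at -0.06. In fatty acid synthesis Acss2 was higher and Fasn lower (log2 1.33 and -1.16). In glycolysis and hypoxia 2 of 27 were called each way, and for oxidative phosphorylation 0 of 40, with a median of 0.15 and 35 of 40 above 0. Zinc and metallothionein genes had Mt4 and Mt3 called higher of 15, and iron genes Hamp (log2 1.07) of 10.

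Lists for stress, growth and immunity held few called genes, where 5.2% of all genes were called higher and 3.14% lower. The integrated stress response had 2 of 27 called each way, p53 targets 0 of 20, immediate-early and serum response genes 2 higher and 3 lower of 27, with Fos at 1.61, and interferon genes 3 higher and 1 lower of 24, with Rsad2 at 1.95 and Psmb8 at -2.47. Cell cycle genes had Cdkn1c called higher and Ccnd1 (log2 -1.63) and Mycn (log2 -1.24, but 1.15 at its dimmest probe set) lower of 32. Among DNA methylation genes Mbd1 was called higher (log2 1.03, other probe set 0.23) and Dnmt3b lower of 12, and Dnmt1 had 8.91 at day 7 and 8.77 at day 4. Dnmt1 lay between 8.37 and 9.65 on the 6 arrays, while Dnmt3a had a mean signal below the floor. Dnmt3l, a cofactor of the de novo enzymes, differed by 0.99. Zfp57, which protects imprints, was the 1 of 19 chromatin silencing genes called (log2 1.35).

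Imprinted genes, which DNA methylation marks by parent, had 2 of 29 called higher, Cdkn1c and Ascl2, and 4 lower (median -0.18). Over all genes the shares were 5.2% higher and 3.14% lower. Grb10, a growth inhibitor gene, had 8.49 at day 7 and 10.64 at day 4 (log2 -2.15), Magel2 differed by -1.82, Dlk1 by -1.80 and the long RNA Rian by -1.11, with its 3 other probe sets between -1.47 and -0.84. Dlk1, Rian and Meg3, at -0.95, share 1 imprinted cluster on chromosome 12. Cdkn1c and Ascl2 share another on chromosome 7, where Phlda2 differed by 0.55 and the antisense RNA Kcnq1ot1 by -0.70. Their neighbours Cd81, Tssc4 and Nap1l4, picked after their values were seen, differed by -0.38, 0.14 and 0.00. So the members of that cluster differed by unequal amounts. In the deletion line Cdkn1c differed by 1.38 and Phlda2 by -1.63.

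By position, the X chromosome held the largest share of genes called higher, 43 of 457 measured (9.41%), beside 5.07% of the 12751 autosomal genes and between 3.69% and 7.22% on single autosomes. The share called lower was 4.6% on the X and 3.09% on autosomes, where chromosome 12 had 6.26%. The median difference of X-linked genes was -0.02. Beside Plac1 and Rhox6, the X-linked genes called higher included the kinase gene Nrk, Arhgef6 and Trap1a, a tumour antigen gene, with differences of 2.64, 2.54 and 1.99, chosen after their values were seen. Rhox5, Rhox6, Rhox9 and Rhox13 are neighbours and were all called higher (log2 1.08, 2.27, 2.43 and 1.31), and they are the 4 measured members of the family, whose related sequences could share signal. Xist, the RNA that coats an inactive X, had 8.5, 8.01 and 10.07 at days 0, 4 and 7. Ftx, a noncoding gene beside it, lay at the floor at day 7 and had 7.57 at day 4. In the deletion line 31 of the X-linked genes were called higher (6.78%) and 39 lower (8.53%).

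**Figure D5:**
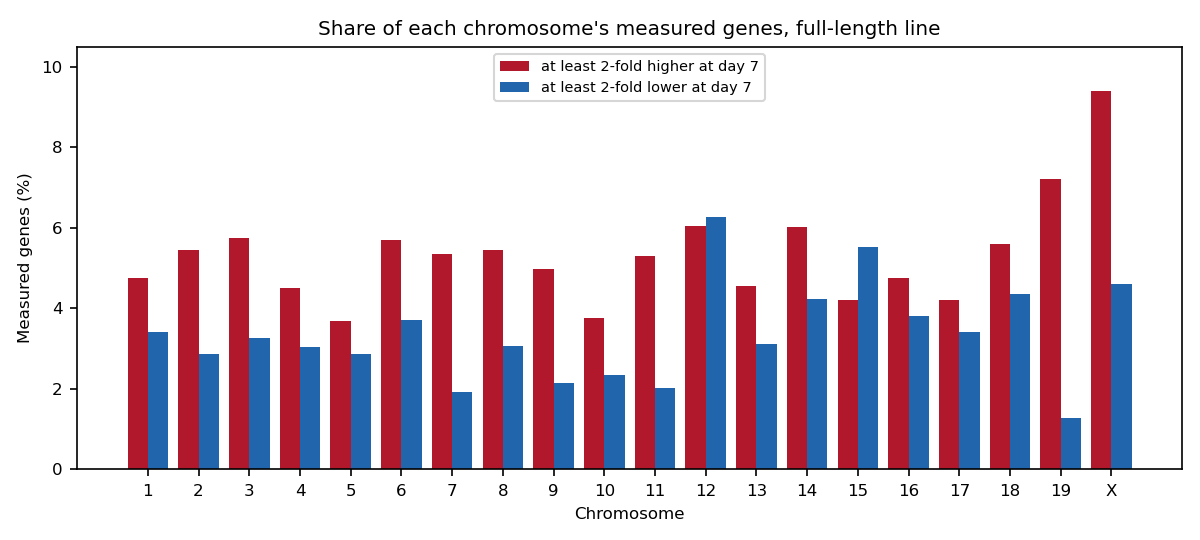
Percent of each chromosome's measured genes called higher or lower at day 7 than day 4 in the full-length line, 1 array a side. The X has the tallest bar for higher genes, at 9.41%, and chromosome 12 the tallest for lower ones, at 6.26%.

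The deletion line went through the same 3 days and shares no array with this comparison. There 634 genes were called higher (4.78%) and 793 lower (5.97%). Of the 690 genes higher in the full-length line 186 were higher in the deletion line too, 27% of the full-length list and 29.3% of the deletion line's 634, and 36 were lower. Of the 417 lower genes 113 were lower in both, 27.1% of the full-length list and 14.2% of the deletion line's, and 24 were higher there. The median change in the deletion line was 0.45 over the genes called higher in the full-length line and -0.45 over those called lower. With 1 array per line and day no test of a difference between lines was possible. Among gene lists, trophoblast had a median of 1.00 in full-length cells, against 0.01 in deletion cells. The streak median, which depends on the filter on dim genes as given above, was -1.18 in full-length and -0.05 in deletion cells, the germline median 0.44 and 1.14, and the naive median 0.89 and 0.70. For day 7 over day 0, which shares the day 7 arrays, the trophoblast median was 2.64 in full-length and 1.32 in deletion cells.

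Markers of the cell types that such cultures could hold were summed as signals with the floor applied. The 8 trophoblast markers summed to 50000 at day 7 and 24300 at day 4 in the full-length line, against 18800 and 11800 in the deletion line. Krt8 and Krt18, both uncalled keratin genes of many epithelia, made up 37500 and 21300 of the full-length line's sums, and the 6 other markers, 4 of them called higher, 12500 and 2930. The 6 pluripotency markers summed to 43300 and 39300, and the 6 visceral endoderm markers to 934 and 1700. The 7 fibroblast or feeder markers summed to 1400 and 805, of which Col1a2 made up 936 and 274 and the 6 others 469 and 531. The 4 germ cell markers summed to 4090 and 2190, of which Dazl and Stra8 made up 2730 and 782 and the 2 others 1350 and 1410. The 3 measured streak markers summed to 271 and 636, with Evx1 at the floor at day 7. Neural markers summed to 1710 and 1750, blood and endothelial markers to 833 and 936, and definitive endoderm markers to 1210 and 1030. Their part in the differences of single genes was not tested.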

How the data were processed

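RNA of 6 samples was hybridised to 6 Affymetrix arrays, 1 per line and day, of which 2 were compared. The deposited values are log2 signals, and the submitters' processing notes name MAS5 as the tool of the authors. The arrays' trimmed mean signals, leaving out 2% at each end, lay between 496.7 and 496.9. Of 45037 probe sets 34945 had 1 gene symbol, 932 several and 9160 none, and those with 1 were used. The array annotation can be old. A floor was set at the median over arrays of the 40th percentile of signal (41.2 in linear signal, log2 5.37). Each gene took the probe set with the highest mean signal over 6 arrays. Genes with a mean at or above the floor counted as measured. A call needed a 2-fold difference and a brighter array at least 2 times the floor. The genes named are the 15 highest and 15 lowest with a brighter array at least 4 times the floor, leaving out unnamed gene models, and up to 6 called members of each of 40 gene lists, with the factors that define a list. The lists overlap, with 76 of their 906 genes in more than 1 list. Other genes named were chosen after their values were seen. The comparison, lists and markers were chosen with earlier results of these data known. Python 3.11.15, numpy 2.4.6 and pandas 2.3.3 were used. The calls were tried on simulated data, where changes above the 2-fold limit were added to genes well clear of the floor. Calls near the limit or the floor were not tried. Promoter sequences are from RefSeq (GRCm38.p6). 9 alternatives were tried. The number of arrays limits the precision, and no test was possible.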

Additional observations from a re-analysis of the deposited data

Results flagged for a closer look

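Of the genes named, 12 were at least 2-fold higher in one line and at least 2-fold lower in the other, among 60 such genes in all. Of the 690 genes called higher in the full-length line 5.22% were called lower in the deletion line, near the 5.97% of all genes there. Of the 417 called lower 5.76% were called higher in the deletion line, beside 4.78% of all genes. With 1 array per line and day the difference between the lines was not tested. Values are log2 differences, day 7 minus day 4, in the full-length line and then in the deletion line. Plac1, the placental gene, had 3.33 and -1.21, and Gbx2, a homeobox gene, 1.73 and -2.30. The lipase gene Lpl had 1.47 and -1.64, the carbonic anhydrase gene Car9 1.61 and -1.55, the receptor gene Pdgfra 1.48 and -1.16, and Sox21 1.06 and -1.11. Those 6 were higher in the full-length line. The matrix gene Efemp1 had -3.47 and 1.78, the collagen gene Col3a1 -1.0 and 2.59, and the deubiquitinase gene Usp17la -1.83 and 2.31. Among signalling genes Fgf8 had -2.55 and at least 1.00, Lefty1 -1.45 and 2.13, and Lefty2 -1.31 and 1.85. Those 6 were lower in the full-length line. In the deletion line Fgf8 lay at the floor at days 0 and 4 and at 6.37 at day 7, just at the limit for a call. For Pdgfra and Col3a1 a dimmer probe set lay at the floor on both arrays of the full-length line.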

How the results depend on the processing

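The count of 417 lower genes became 631 with the floor at the 30th percentile and 269 with the brighter array required at 4 times the floor. The cause follows from the construction, since a lower floor admits dimmer genes and a stricter limit removes them. Under the other alternatives it lay between 295 and 434, and the 690 higher genes became 494 to 872. No value changed sign among the named genes that were called. Among the 154 named genes under 9 alternatives, 40 values of 32 genes moved by more than 0.48, and 1337 did not. The value 0.48 is the SD between probe sets over all measured genes with a second one. Many of the unmoved values were fixed by construction. The limit of 4 times the floor acts only on calls, and dropping the filter on dim genes only adds genes, so neither changes a gene's value. Scaling to equal medians shifts genes nearly alike, by less than 0.48. Of the list medians 3 moved by more than that, the streak median to -0.47 and the oocyte median to 0.23 with no filter on dim genes, and the mesoderm median to -0.16 with the floor at the 50th percentile. Dim signals limit all bounds at the floor. No paired analysis was possible because each line and day has 1 array.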

Other observations

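Of 8 measured Serpinb6 and Serpinb9 genes on chromosome 13, picked after their values were seen, 5 were called higher at day 7 than at day 4 in the full-length line and 0 lower. Serpinb9b had 10.67 at day 7 and 8.56 at day 4, Serpinb6b 8.97 and 6.93, and Serpinb6c 8.02 and 6.54. Serpinb9c and Serpinb9g had 7.30 and 8.30 at day 7 and lay at the floor at day 4. Serpinb6a, Serpinb6e and Serpinb9 were not called, with differences of -0.11, 0.63 and 0.84. These genes are close paralogs, so that probe sets could share signal. Genes called higher formed 10 runs of at least 3 measured neighbours, and genes called lower 2. Of all measured genes 5.2% were called higher and 3.14% lower. How many runs such shares would give without any grouping by position was not tested. The higher runs included the Rhox genes and Serpinb9b, Serpinb9c and Serpinb9g, whose related sequences could share signal.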
